A study of Rattus norvegicus with 9 samples.

Results

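The 77 genes described here encode the proteins of the cytosolic ribosome, and the rule that picks them uses names alone: protein-coding entries called Rpl or Rps followed by a number, together with Rplp0, Rplp1, Rplp2 and Rpsa. They are 77 of the 35362 entries of the count table. Of these, 45 encode proteins of the large 60S subunit and 32 encode proteins of the small 40S subunit. A ribosome needs its proteins in fixed proportions, and their mRNAs are among the most abundant of a growing cell. Many of these mRNAs begin with a tract of pyrimidines, the TOP motif, through which the kinase complex mTORC1 controls how well they are translated, while MYC is a known driver of their transcription. Proteins made in excess of a ribosome are degraded, and a few of them, free of the ribosome, bind the p53 regulator Mdm2.

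RNA was sequenced from adipose-derived stromal cells (ASCs) of male Sprague Dawley rats aged 6 weeks, grown to passage 3 from fat under the skin (subcutaneous, SASCs), around the kidney (perirenal, PASCs) or at the epididymis (EASCs) with no treatment given in any label. The cells were those that attached to plastic, with no sort or cloning step given, and the labels of the groups differ only in the depot of origin. Each group had 3 samples. No label ties a sample to an animal, and all 9 titles begin with sd1, whose meaning is not given. The p-values therefore measure only the spread between these samples, which may be technical. In bulk RNA, more cells of a type and more RNA per cell cannot be told apart. The 9 libraries held between 17591916 and 30299032 counts, and 14770 entries, 73 of the 77 ribosomal protein genes among them, had enough counts to be tested.

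The labelled cell type was checked against its markers. All 7 mesenchymal markers (Cd44, Thy1, Itgb1, Nt5e, Eng, Pdgfra and Pdgfrb) were expressed in each group, with summed levels of 4135 to 4262 CPM (counts scaled to a common library size, by the trimmed mean of M-values, TMM) in the SASC samples, 3784 to 3960 in the PASC samples and 4958 to 5027 in the EASC samples. Markers of other cells moved with the groups. The 5 smooth muscle markers summed to 159 to 170 CPM in the SASC samples, 2829 to 3126 in the PASC samples and 6317 to 6685 in the EASC samples. The 7 mesothelial markers summed to 18.4 to 20.02, 94.5 to 101 and 129 to 141 CPM. Upk3b and Krt18 were at 3 counts or fewer in SASCs, while Krt19 went the other way, at 3 counts or fewer in PASCs and EASCs. The 5 markers of dividing cells (Mki67, Top2a, Ccnb1, Cdk1 and Plk1) summed to 57.7 to 61.1 CPM in the SASC samples, 507 to 517 in the PASC samples and 299.9 to 309 in the EASC samples. Leukocyte markers (6 in the table, with Cd3e at 3 counts or fewer in each group) summed to 36.0 to 37.7, 47.5 to 50.3 and 74.5 to 76.9 CPM, and the 5 endothelial markers to 41.6 to 44.1, 11.5 to 14.3 and 29.3 to 32.1 CPM. The 5 adipocyte markers went the other way, with 87.1 to 95.9 CPM in the SASC samples, 19.1 to 20.2 in the PASC samples and 9.24 to 10.1 in the EASC samples. The part of these differences in the ribosomal protein values below was not tested.

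Ribosomal protein genes have many near-identical copies in a mammalian genome, and the table lists 1301 further entries whose description names the protein of a member. For 10 of the 77 members the counts of the entry are uncertain as a measure of the gene. In 8 of them (Rpl8, Rpl30, Rpl35a, Rplp2, Rps6, Rps9, Rps19 and Rps27a) the other entries held over 50% of the counts of the protein, and 3 (Rps4x, Rps4y2 and Rps27a) span no more bases than their own length, so the table gives them no intron. Rpl8 and Rpl35a had 0 counts in all 9 libraries, Rplp2 had 1 count and Rps19 had 24 counts, so these 4 could not be tested. A count of 0 allows a level of up to 0.104 to 0.159 CPM (3 counts) per library, which limits the reads given to the entry and not the expression of the gene. The remaining 67 members are called the firm members below. In 6 of the 77 members the gene identifier does not name the same gene in RefSeq. Among the firm members these are Rpl12, Rpl34 and Rpl37, and the identifier of Rpl12 is that of a pseudogene.

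Per length, the firm members stood at the top of the transcriptome. Levels between genes are given here as FPKM, the TMM-scaled CPM divided by the length in the table in kilobases. Over the 9 samples the mean level of the 67 firm members ran from 177 FPKM for Rpl39 to 1856 FPKM for Rps2, a 10.5-fold range, with a median of 659 FPKM and quartiles of 509 and 815. The median of all tested genes was 4.88 FPKM, and 98.1% of tested genes lay below the lowest firm member.

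The 5 highest members were Rps2, Rpl13a, Rplp0, Rpl41 and Rplp1. Rps2, a protein at the mRNA entry site, measured 1420 ± 84.6 FPKM (SD, n = 3) in SASCs, 2266 ± 50.1 in PASCs and 1880 ± 185 in EASCs. Rpl13a, a 60S protein that is released from the ribosome in interferon-treated cells, measured 1288 ± 139, 2031 ± 209 and 1883 ± 95.4 FPKM. Rplp0, the base of the stalk that recruits the elongation factors, measured 1263 ± 93.8, 1757 ± 46.5 and 1725 ± 43.9 FPKM. In each of these 3 genes every PASC and EASC sample lay above every SASC sample. Rpl41, whose protein is the shortest of the ribosome, measured 1293 ± 173, 1715 ± 120 and 1584 ± 108 FPKM, and Rplp1, an acidic stalk protein, 924 ± 87.1, 1422 ± 125 and 1343 ± 97.9 FPKM. Rpl13a, Rplp0 and Rpl41 lie within each other's SD in SASCs, Rplp0 and Rpl41 do so in PASCs, and Rps2 and Rpl13a in EASCs, so these do not separate there. The 5 lowest levels of the 77 were those of Rpl8, Rpl35a, Rplp2, Rps19 and Rps9, all 5 of them uncertain entries, at 0 to 0.367 FPKM.

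**Figure D1:**
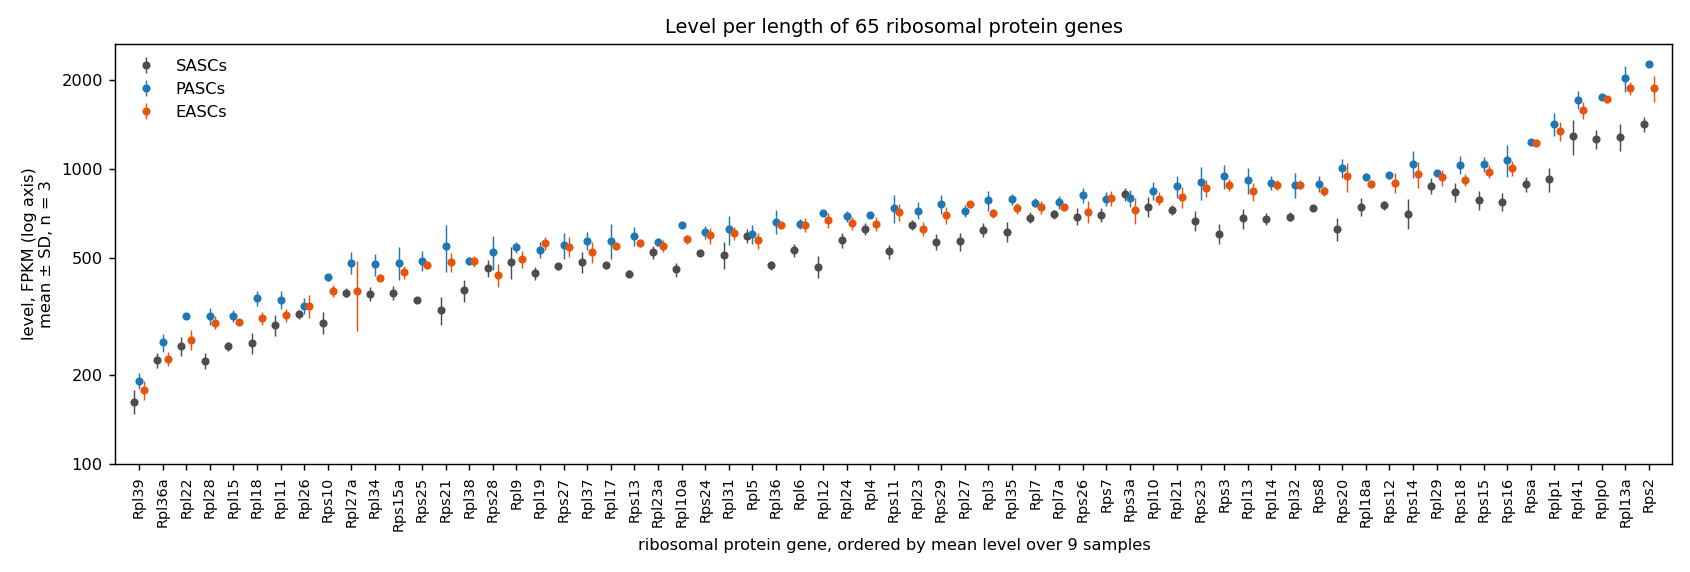
Level per length of 65 of the 67 firm ribosomal protein genes in FPKM (log axis), ordered by the mean over 9 samples. Points are group means and bars are SD with n = 3 for SASCs (grey), PASCs (blue) and EASCs (orange). The genes run from Rpl39 at 177 FPKM to Rps2 at 1856 FPKM, and the grey points lie lowest for most genes.

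The first comparison asks whether ribosomal protein mRNA differs between ASCs of visceral and subcutaneous fat. Scaled by TMM, the 77 genes summed to 27945, 28840 and 26191 CPM in the SASC samples, to 37420, 36367 and 33593 CPM in the PASC samples and to 34932, 32687 and 32965 CPM in the EASC samples. The SASC samples were the lowest 3 of the 9, and the PASC and EASC samples overlapped. The mean was 29.4% higher in PASCs and 21.2% higher in EASCs than in SASCs. In PASCs, 66 of 73 tested members were higher than in SASCs and 0 were lower (edgeR quasi-likelihood test, Benjamini-Hochberg adjusted p under 0.05 over all tested genes), where 34.6% of all tested genes were called higher and 34.6% lower. Their median log2 fold change was 0.34, against -0.01 over all tested genes. In EASCs, 48 of 73 were higher and 1 was lower, where 35.5% of all genes were called higher and 34.3% lower, and the median was 0.27 against 0.01.

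These changes were small. At the study's threshold for a differentially expressed gene (DEG), a change above 2-fold with an adjusted p under 0.05, the only member called in either comparison was Rps9, a nearly silent entry described below. In fits of only the 2 groups compared, 0 members were DEGs in either comparison. Over all tested genes, 26.9% were DEGs in PASCs and 27.8% in EASCs by the edgeR test used here. The study used another test, DEGseq, so these shares are not its own counts of DEGs. The firm members ran from -0.05 to 0.72 on the log2 scale in PASCs, with 63 of 67 higher, and from -0.18 to 0.59 in EASCs, with 47 of 67 higher and 1 lower.

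The direction of the group as a whole depended on the scaling. With one factor per library (TMM, DESeq2 size factors, total counts, or total counts without ribosomal RNA), the median of the members stood 0.34 to 0.35 above the median of all genes in PASCs and 0.26 above it in EASCs. With cyclic loess, which scales by abundance, the distance was 0.06 in PASCs and -0.05 in EASCs. It called 26 members higher and 9 lower in PASCs, and 14 higher and 21 lower in EASCs. The share of all tested genes called under cyclic loess was not counted. With an offset fitted to gene length it was 0.00 in both. Under the length offset 20 members were called higher and 18 lower in EASCs, where 34.9% and 33.8% of all genes were called, and 20 higher and 18 lower in PASCs, where 34.0% and 34.1% were. By total counts alone, 1 member was higher and 9 were lower in EASCs, where 15.3% of all tested genes were called higher and 46.7% lower and their median was -0.39. In PASCs 5 members were higher and 2 lower by total counts, where 16.0% and 42.9% of all genes were called and their median was -0.33. The members' share of all counts was 3.28 ± 0.25% (SD, n = 3) in SASCs, 3.38 ± 0.17% in PASCs and 3.02 ± 0.54% in EASCs. Ribosomal RNA took 10.4 to 15.5% of the counts in the SASC samples, 22.4 to 32.9% in the PASC samples and 15.9 to 40.3% in the EASC samples. The precursor entry Rn45s held almost as many counts as Rn18s and Rn28s together, 1895098 against 1893131 in SASCs replicate 1. In EASCs replicate 3 they were 6064866 against 6061323. The same reads thus seem to be entered under the precursor and under its parts, which inflates these shares and the total counts. The effect on values by total counts was not tested.

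**Figure D2:**
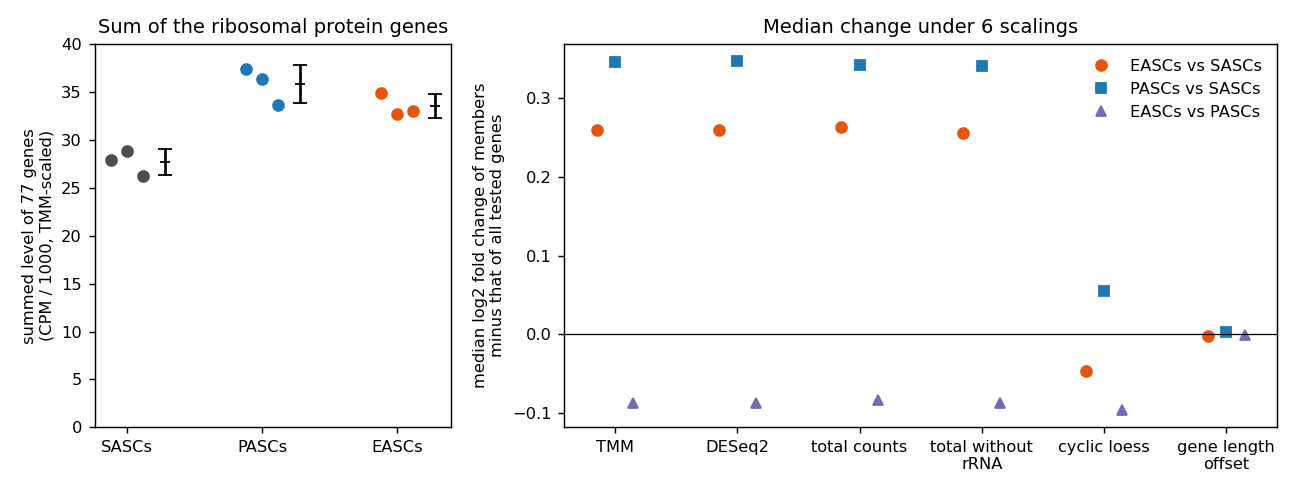
Left, summed level of the 77 ribosomal protein genes in each sample (CPM divided by 1000, TMM-scaled) with the group mean and SD (n = 3) beside the points. Right, the median log2 fold change of the tested members minus that of all tested genes for 3 comparisons under 6 scalings. The 4 scalings with one factor per library give about 0.35 and 0.26 against SASCs, and the gene length offset gives 0.00.

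Gene length moved with the comparison across the whole transcriptome. The ribosomal protein genes are short, 296 to 1933 bases with a median of 615, against a median of 2880 bases over the tested genes. Among other tested genes of 500 to under 1000 bases (941 genes) the median log2 fold change was 0.35 in PASCs and 0.27 in EASCs. The 36 firm members of that length had medians of 0.33 and 0.24, no higher than those of the other genes. Below 500 bases the 20 firm members had medians of 0.36 and 0.30, against 0.21 and 0.10 for 199 other genes. From 1000 to under 2000 bases the 11 firm members had 0.34 and 0.28, against 0.19 and 0.16 for 3391 others, and genes of 4000 bases and over had -0.21 and -0.17. Among the firm members themselves the change did not follow length (Pearson's r across 67 genes -0.08 in PASCs and -0.07 in EASCs, a description over genes that share the same libraries). Whether the trend over length comes from the cells or from the libraries was not tested.

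**Figure D3:**
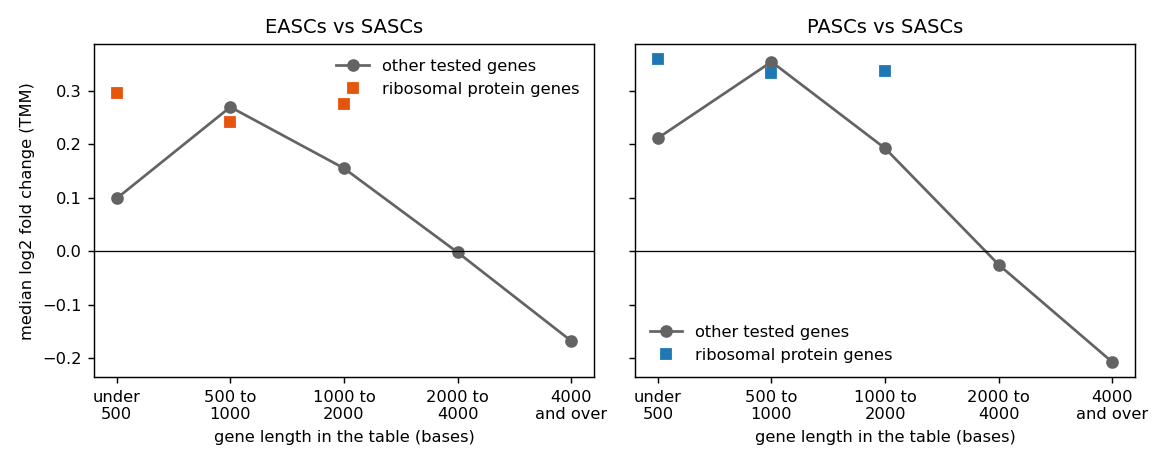
Median log2 fold change against SASCs (TMM) of the firm ribosomal protein genes (squares) and of all other tested genes (circles) in 5 classes of gene length in bases. Other genes fall from 0.35 and 0.27 at 500 to under 1000 bases to -0.21 and -0.17 at 4000 bases and over, and the members lie on their line in the class that holds 36 of them.

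The members also differed among themselves. When each library was scaled to its own ribosomal protein total, so that a change is relative to the other members, 11 members were higher and 19 lower in EASCs than in SASCs (21.9% and 47.2% of all genes, which are scaled to the same total), and 10 were higher and 15 lower in PASCs (18.6% and 52.6%). Rpl12, Rpl13a, Rplp1, Rps3, Rps20 and Rps21 rose above the pool in both comparisons. Rpl4, Rpl5, Rpl7, Rpl7a, Rpl9, Rpl10, Rpl23, Rpl23a, Rpl26, Rpl29, Rpl36a, Rps3a, Rps4x and Rps28 fell below it in both, 14 members in all. Of the 6 members above the pool 3 belong to the 60S subunit, of the 14 below it 11, and of the 73 tested members 42. The 2 comparisons share the SASC samples, so their lists are not independent. The middle 50% of the members spanned 0.29 on the log2 scale in EASCs and 0.25 in PASCs by TMM, 0.27 and 0.24 by cyclic loess and 0.27 and 0.28 with the length offset.

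Rps20, a protein of the head of the 40S subunit (rn6 chr5:16706052-16707214, minus strand), measured 322, 338 and 285 CPM in the SASC samples, 545, 504 and 472 in the PASC samples and 524, 481 and 419 in the EASC samples. Every PASC and EASC sample lay above the highest SASC sample. The log2 fold change was 0.69 ± 0.07 (SE; edgeR adjusted p = 3.26e-09) in PASCs and 0.59 ± 0.07 (adjusted p = 5e-08) in EASCs, and relative to the pool it was 0.32 and 0.31. Rps3, which lies beside it in the ribosome and lines the mRNA entry channel (chr1:164435868-164441167, minus strand), measured 518, 516 and 449 CPM in the SASC samples, 843, 780 and 699 in the PASC samples and 760, 727 and 689 in the EASC samples. Its SASC samples again lay below the other 6, with changes of 0.65 ± 0.07 (adjusted p = 2.15e-09) and 0.55 ± 0.07 (adjusted p = 3.93e-08). Rps21 (chr3:175629087-175630205, plus strand) measured 145, 162 and 131 CPM in the SASC samples, 283, 246 and 195 in the PASC samples and 232, 203 and 204 in the EASC samples, a change of 0.72 ± 0.09 and 0.54 ± 0.09. It had the largest change of the firm members in PASCs. With the length offset the changes in PASCs and EASCs were smaller, 0.32 and 0.33 for Rps20, 0.32 and 0.31 for Rps3 and 0.35 and 0.27 for Rps21, all called.

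Rpl5 was at the other end. Its protein carries 5S ribosomal RNA into the large subunit together with Rpl11 (chr14:2860877-2867397, minus strand). It measured 667, 729 and 662 CPM in the SASC samples, 746, 694 and 646 in the PASC samples and 710, 644 and 634 in the EASC samples, so the 3 groups overlapped. The log2 fold change was 0.02 ± 0.06 in PASCs and -0.05 ± 0.06 in EASCs, neither called by edgeR. Relative to the pool both were called, at -0.35 (adjusted p = 8.2e-05) and -0.33 (adjusted p = 0.00019), and with the length offset at -0.25 in both. Rps3a, a protein of the 40S subunit that was singled out after its value was seen, was the only member called lower than in SASCs by TMM (chr2:185440477-185444846, minus strand). It measured 723, 737 and 669 CPM in the SASC samples, 727, 695 and 637 in the PASC samples and 692, 619 and 564 in the EASC samples. Its change in EASCs was -0.18 ± 0.07 (adjusted p = 0.0168), and the EASC and SASC samples overlapped. Without 1 library the call was lost in 4 cases, SASCs replicate 1 (adjusted p = 0.0523) or 2 (0.0694) and EASCs replicate 2 (0.0529) or 3 (0.153). With the counts of the 14 other entries of the same protein added, the change was -0.09 (adjusted p = 0.219). Under scalings that follow length or abundance the decrease was larger, -0.42 (adjusted p = 1.28e-07) with the length offset and -0.57 (adjusted p = 2.47e-07) under cyclic loess.

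**Figure D4:**
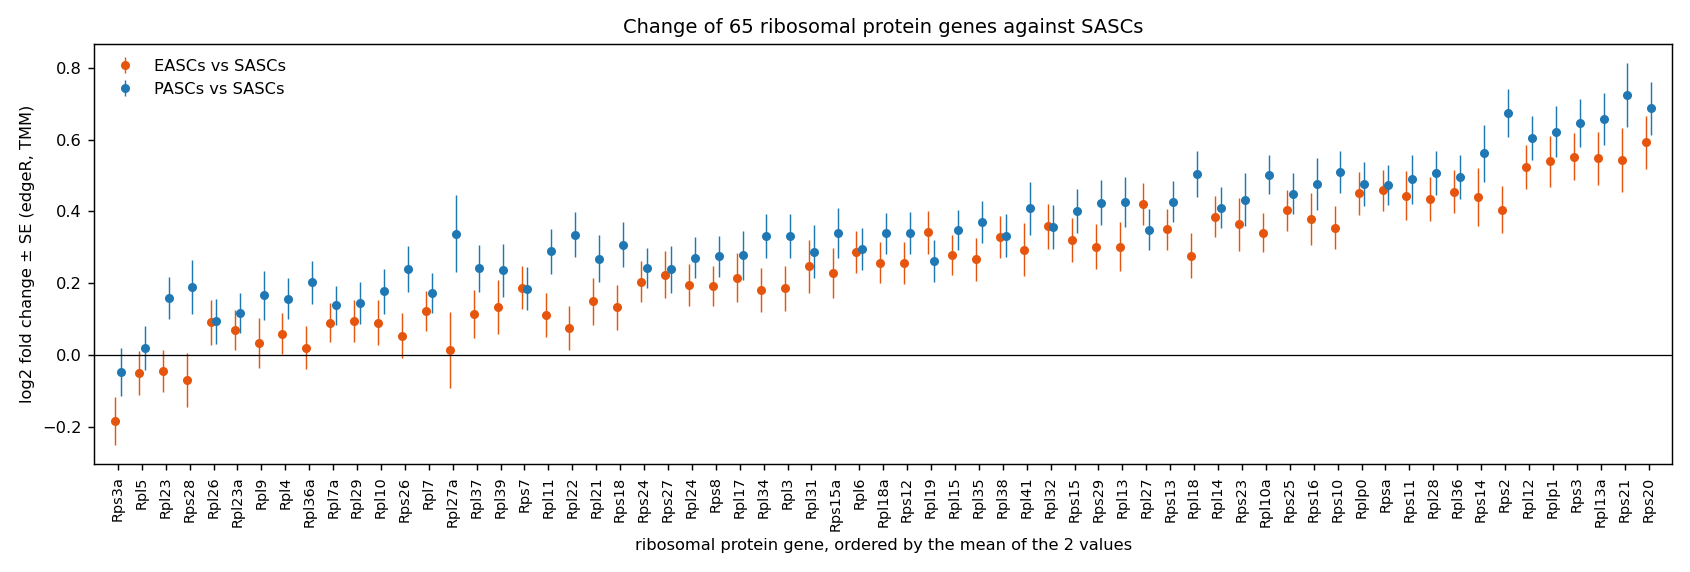
Log2 fold change against SASCs with its SE (edgeR, TMM) for 65 of the 67 firm ribosomal protein genes in EASCs (orange) and PASCs (blue), ordered by the mean of the 2 values. The genes run from Rps3a and Rpl5 near 0 on the left to Rps21 and Rps20 on the right, at 0.54 to 0.72, and both sets of points share the SASC samples.

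The starts of these genes are shown because the pyrimidine tract at the start is what ribosomal protein mRNAs are known for, and because both ends of the order can be compared by it. Of the 77 members, 62 had a promoter under their symbol in RefSeq (build GRCr8, 250 bases before to 50 after the annotated start), and 59 of these lay on the chromosome that the table gives. Each line shows 70 bases before and 20 after the start, 5′ to 3′ on the gene's strand, with the longest run that opens with C and goes on with C or T, beginning from 30 bases before to 10 after the start, in capitals. The first 4 genes rose above the pool in both comparisons and the last 4 fell below it. In Rps3, Rpl13a, Rpl5 and Rpl7a the run ends before the annotated start, so it lies outside the annotated mRNA.
Rps21 (chr3:187723968-187724057, plus): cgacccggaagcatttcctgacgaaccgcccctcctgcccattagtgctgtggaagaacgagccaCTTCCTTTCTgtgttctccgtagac
Rps3 (chr1:163195757-163195846, minus): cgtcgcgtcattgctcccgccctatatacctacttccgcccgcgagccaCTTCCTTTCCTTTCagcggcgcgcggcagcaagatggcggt
Rpl13a (chr1:104748894-104748983, minus): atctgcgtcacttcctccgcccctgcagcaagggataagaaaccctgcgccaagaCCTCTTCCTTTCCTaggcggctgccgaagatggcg
Rplp1 (chr8:71290853-71290942, minus): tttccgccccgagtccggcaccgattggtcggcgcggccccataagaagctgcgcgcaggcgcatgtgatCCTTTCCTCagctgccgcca
Rpl5 (chr14:1995206-1995295, minus): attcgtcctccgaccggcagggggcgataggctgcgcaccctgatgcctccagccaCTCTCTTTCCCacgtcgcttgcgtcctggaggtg
Rps3a (chr2:173827023-173827112, minus): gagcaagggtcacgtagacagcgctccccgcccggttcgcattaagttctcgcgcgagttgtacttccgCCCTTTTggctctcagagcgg
Rpl29 (chr8:115947573-115947662, plus): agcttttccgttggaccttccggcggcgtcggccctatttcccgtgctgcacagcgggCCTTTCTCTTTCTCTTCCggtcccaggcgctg
Rpl7a (chr3:30637066-30637155, plus): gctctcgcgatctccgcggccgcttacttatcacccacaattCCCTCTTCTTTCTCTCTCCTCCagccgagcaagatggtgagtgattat

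A run of at least 7 such bases was found in 43 of the 59 member promoters (72.9%) and in 21.23% of the 33469 promoters of the table, and a run of at least 9 in 55.9% and 9.87%. Both ends of the order carried it: 4 of the 5 promoters at hand for the 6 genes above the pool, and 9 of the 11 at hand for the 14 below it. The ETS site CCGGAAG, searched on both strands over the whole window, was in 32.2% of the member promoters and 8.75% of all, and the GC box GGGCGG in 57.6% and 33.06%. The E-box CACGTG, to which MYC can bind, was in 8.5% and 6.42%, the YY1 site AAGATGGC in 6.8% and 3.17%, and TATAAA in 11.9% and 14.22%. The motif letters describe the annotated windows only.

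By subunit, the 31 tested 40S genes had a median log2 fold change of 0.43 in PASCs (27 higher, 0 lower) and 0.35 in EASCs (23 higher, 1 lower), where 34.6% and 35.5% of all tested genes were called higher and 34.6% and 34.3% lower. The 42 tested 60S genes had 0.31 (39 higher) and 0.20 (25 higher). The summed level of the 60S genes over that of the 40S genes was 1.64, 1.65 and 1.67 in the SASC samples, 1.52, 1.55 and 1.55 in the PASC samples and 1.57, 1.57 and 1.56 in the EASC samples. The ratio was thus higher in every SASC sample than in any visceral sample, and it does not depend on a factor per library. With the length offset the medians were 0.06 and 0.09 for the 40S genes and -0.03 and -0.03 for the 60S genes.

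Rplp0 and Rplp1, of the stalk, were called higher in both comparisons by TMM. Rplp0 measured 1446, 1432 and 1262 CPM in the SASC samples, 1953, 1946 and 1862 in the PASC samples and 1909, 1831 and 1918 in the EASC samples, with changes of 0.48 ± 0.06 (adjusted p = 7.94e-08) and 0.45 ± 0.06 (adjusted p = 2.12e-07), which turned to -0.02 and -0.09 under cyclic loess. Rplp1 measured 496, 468 and 411 CPM in the SASC samples, 721, 758 and 637 in the PASC samples and 665, 619 and 716 in the EASC samples, with changes of 0.62 ± 0.07 (adjusted p = 1.22e-08) and 0.54 ± 0.07 (adjusted p = 1.53e-07). In both genes the SASC samples were the lowest 3. Rpl12, at the base of the stalk, changed by 0.61 ± 0.06 and 0.52 ± 0.06, and Rplp2, the partner of Rplp1, could not be measured by its entry. Rpl11, which binds Mdm2 together with Rpl5, measured 270, 316 and 298 CPM in the SASC samples, 384, 360 and 335 in the PASC samples and 335, 313 and 306 in the EASC samples. It was called in PASCs (0.29 ± 0.06, adjusted p = 0.000204, and -0.01 with the length offset) and not in EASCs (0.11 ± 0.06, adjusted p = 0.116).

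All 7 genes of the mRNA entry and exit sites of the 40S subunit passed the test in PASCs, with a median of 0.56, and 5 of 7 in EASCs, with a median of 0.44, where 34.6% and 35.5% of all tested genes were called higher. Rps9, an uncertain entry with few counts described below, is in this list and among these calls. With the length offset 5 were higher and 2 lower in PASCs, and 4 and 2 in EASCs. Rps2 measured 1366, 1386 and 1240 CPM in the SASC samples, 2117, 2173 and 2080 in the PASC samples and 1643, 1682 and 1961 in the EASC samples. Its PASC samples were the highest of the 9, its SASC samples the lowest, and the changes were 0.67 ± 0.07 (adjusted p = 6.8e-10) and 0.40 ± 0.07 (adjusted p = 4.58e-06, and -0.14 under cyclic loess). Rps14, at the exit site, changed by 0.56 ± 0.08 in PASCs and by 0.44 ± 0.08 in EASCs. Rps26 and Rps28, which touch the mRNA on its way out, changed least, by 0.24 ± 0.06 and 0.19 ± 0.08 in PASCs and by 0.05 ± 0.06 and -0.07 ± 0.08 in EASCs, and with the length offset all 4 values were below 0, from -0.34 to -0.14. Rpsa, also known as the laminin receptor precursor, measured 965, 1033 and 918 CPM in SASCs and 1306 to 1370 CPM in the 6 visceral samples. Its changes were 0.47 ± 0.06 and 0.46 ± 0.06, with -0.02 in EASCs under cyclic loess.

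Of the 8 genes at the exit of the peptide tunnel, 6 were higher in PASCs (median 0.27) and 4 in EASCs (median 0.17), where 34.6% and 35.5% of all tested genes were called higher. With the length offset 0 of the 8 were higher and 2 lower in each comparison. Rpl22, which also binds viral and cellular RNA outside the ribosome, was called in PASCs at 0.34 ± 0.06 (adjusted p = 2.54e-05, and -0.04 with the length offset) and not in EASCs at 0.07 ± 0.06. Of 9 genes mutated in Diamond-Blackfan anemia, an inherited failure of red cell production, 7 could be tested, 6 of them were higher in PASCs and 4 in EASCs against that same background. With the length offset 2 of the 7 were higher and 4 lower in PASCs, and 1 higher and 2 lower in EASCs. Rps19, the gene of this list most often mutated in patients, had no more than 0.212 CPM in any library. Rps25, Rpl38 and Rpl10a, which have been tied to internal initiation of translation, were all higher in both comparisons, at 0.45, 0.33 and 0.50 in PASCs and 0.40, 0.33 and 0.34 in EASCs, with Rpl38 at -0.04 in PASCs under the length offset.

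Between the visceral depots the members differed little. In EASCs, 0 of 73 members were higher than in PASCs and 13 were lower, where 16.1% of all tested genes were called higher and 14.5% lower, and no member was a DEG, where 7.39% of all genes were. The median was -0.09 against -0.01 over all genes, and 0.00 with the length offset, under which 2 were higher and 4 lower, where 16.5% and 14.8% of all genes were called. The 4 lower members were 4 of the 13, Rps2, Rps4y2, Rpl18 and Rpl22, and by total counts 1 of the 13 was called, where 7.64% of all genes were called higher and 7.14% lower. The count varied with the library left out. It was 3 members without PASCs replicate 1, 7 without PASCs replicate 2 and 24 without PASCs replicate 3. Without EASCs replicate 2 it was 5, and without EASCs replicate 3 it was 6. The share of all tested genes called in these fits was not counted, so the variation is not particular to the members.

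The largest called difference was that of Rps4y2, which the table places on chr4:182745448-182746381 with no intron. It measured 12.1, 9.13 and 9.71 CPM in the SASC samples, 19.4, 17.4 and 17.0 in the PASC samples and 9.88, 10.8 and 9.22 in the EASC samples. The PASC samples lay apart from the other 6, which overlapped, and the difference from EASCs was -0.85 ± 0.11 (adjusted p = 1.11e-06), and it was called under each setting tried, at -0.91 to -0.75. At 13.6 FPKM this entry was far below the lowest firm member. Rps2 was lower in EASCs by -0.27 ± 0.07 (adjusted p = 0.0021), Rpl22 by -0.26 ± 0.06 (adjusted p = 0.00151), Rps28 by -0.26 ± 0.08 (adjusted p = 0.00914), Rpl18 by -0.23 ± 0.06 and Rpl23 by -0.20 ± 0.06. Rpl27a differed by -0.32 ± 0.11 (adjusted p = 0.0218), but its EASC samples measured 408, 297 and 515 CPM against 526, 542 and 458 in PASCs and overlapped with them. That call was lost under DESeq2 (adjusted p = 0.213), total counts (0.051) and the length offset (0.0733), and without EASCs replicate 1 (0.0559) or 2 (-0.14, adjusted p = 0.222) or PASCs replicate 1 (0.0723) or 2 (0.0916). The remaining calls, of Rpl11, Rps26, Rpl36a, Rps18, Rpl10a and Rps10, were between -0.19 and -0.15.

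The uncertain entries show how reads are divided between copies. Rps6, the substrate of the S6 kinases, measured 0.348, 33.8 and 4.44 CPM in the SASC samples, 36.0, 25.1 and 8.74 in the PASC samples and 29.5, 23.6 and 8.50 in the EASC samples. Its values differed more within each group than between the groups. The 21 other entries that name protein S6 held 56.6, 47.6 and 41.3 CPM in the SASC samples, 63.8, 57.0 and 40.6 in the PASC samples and 51.4, 52.5 and 52.1 in the EASC samples. Their sum with Rps6 was 45.8 to 81.4, 49.4 to 99.8 and 60.6 to 80.9 CPM, and the groups overlapped. For Rpl30 the 6 other entries held more than 3 times the counts of the member, 209 to 232 CPM in SASCs against 52.0 to 60.6 CPM.

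Rps9, the only DEG, had 2, 1 and 0 counts in the SASC libraries. Against that sum of 3 counts, the PASC libraries held 40 counts and the EASC libraries 19, a ratio of 13.5 (exact 95% counting interval 4.31 to 68.3) and 6.50 (1.91 to 34.3) after TMM scaling, intervals that cover counting error only. The 19 counts in EASCs were 15, 2 and 2. The edgeR adjusted p was 0.00144 in PASCs and 0.0322 in EASCs, and 0.0036 and 0.052 with the length offset. The entry passed the count filter only through the libraries with 20, 17 and 15 counts, in which it is high. Its calls are therefore no support for a difference. In fits of only the groups compared, no member was a DEG against SASCs. The call in EASCs was lost without EASCs replicate 1 (log2 fold change 0.97, adjusted p = 0.523), SASCs replicate 2 (adjusted p = 0.0703) or SASCs replicate 3 (adjusted p = 0.0984). The 15 other entries of protein S9 summed to 1.71 to 2.82 CPM in the SASC samples, 2.69 to 5.13 in the PASC samples and 0.805 to 4.02 in the EASC samples, and with all entries of a protein added to its member no member passed 2-fold. Added in this way, all 77 members could be tested, with 69 higher and 0 lower in PASCs and 49 higher and 0 lower in EASCs, where 34.8% and 35.7% of all tested entries were called higher and 34.6% and 34.3% lower.

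**Figure D5:**
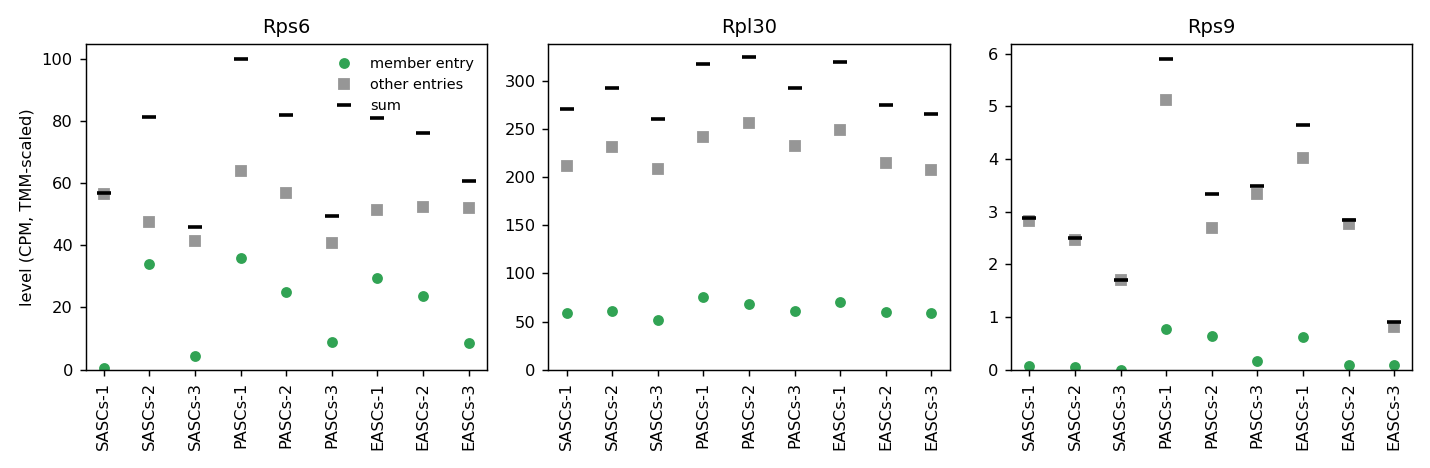
Level (CPM, TMM-scaled) in each of the 9 samples of the member entry (green circles), of the other entries that name the same protein (grey squares) and of their sum (black bars) for Rps6, Rpl30 and Rps9. The Rps6 entry varies from 0.348 to 36.0 CPM, and for each of the 3 proteins the other entries hold most of the counts.

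Genes that the naming rule leaves out were measured beside the members. Rpl22l1, a paralog of Rpl22 that can take its place in the ribosome, measured 44.9, 38.5 and 32.3 CPM in the SASC samples, 88.4, 69.5 and 74.7 in the PASC samples and 58.1, 51.3 and 46.7 in the EASC samples. The 3 groups did not overlap. It rose by 1.00 ± 0.10 in PASCs (adjusted p = 4.65e-10, and 0.64 with the length offset) and by 0.42 ± 0.10 in EASCs (adjusted p = 0.000366), and the EASC level differed from the PASC level by -0.58 ± 0.09 (adjusted p = 2.08e-05). Rps27l, a p53 target, rose by 0.62 ± 0.07 in both comparisons, and Rpl10l, known from testis, was lower by -0.56 ± 0.17 and -0.55 ± 0.17 at 4.03 to 8.79 CPM. Rpl7l1 changed by 0.21 ± 0.06 in PASCs and by 0.11 ± 0.06 in EASCs, where it was not called. Rpl3l, Rpl36al, Rpl39l and Rps15al4 had at most 0.492 CPM and were not tested. Fau, in which a ribosomal protein is made as a fusion to a relative of ubiquitin, was higher in both comparisons, by 0.27 in PASCs and by 0.21 in EASCs, and it turned to -0.10 and -0.06 with the length offset. Of 32 entries named as pseudogenes, 9 could be tested, with 3 higher and 2 lower in PASCs (34.6% and 34.6% of all tested genes) and 3 higher and 1 lower in EASCs (35.5% and 34.3%).

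The other parts of the translation machinery were counted in the same way, where 34.6% of all tested genes were called higher in PASCs and 35.5% in EASCs, and 34.6% and 34.3% lower. Of 68 tested genes of the mitochondrial ribosome, 57 were higher and 1 lower in PASCs (median 0.55) and 46 higher and 3 lower in EASCs (median 0.40), and with the length offset 40 were higher and 5 lower, and 34 higher and 7 lower, where 34.0% and 34.9% of all tested genes were called higher. Mrpl54 had the largest change, 1.18 ± 0.10 and 1.12 ± 0.10. Of 62 tested factors of ribosome biogenesis, 40 were higher and 6 lower in PASCs and 37 and 8 in EASCs, among them Fbl, the methyltransferase of ribosomal RNA, at 1.21 ± 0.07 and 0.99 ± 0.07. Of 28 initiation factors 20 were higher and 2 lower in PASCs and 20 and 3 in EASCs, with Eif2b2 at 1.86 ± 0.07 and 2.00 ± 0.07 and Eif5a at 1.27 ± 0.06 and 1.05 ± 0.06. Of 17 other genes with TOP mRNAs, 10 were higher and 3 lower in PASCs and 7 and 2 in EASCs, with the largest change in Hnrnpa1, at 1.17 ± 0.06 and 1.03 ± 0.06. The 14 tested genes of RNA polymerase I and its factors had 3 higher and 4 lower in PASCs and 4 and 4 in EASCs.

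Regulators of ribosomal protein mRNAs were counted against the same background, 34.6% of all tested genes higher and 34.6% lower in PASCs and 35.5% and 34.3% in EASCs. Of 14 genes of the mTORC1 pathway, 5 were higher and 6 lower in PASCs and 5 and 7 in EASCs. Eif4ebp1, a repressor of cap-dependent translation, was higher by 1.39 ± 0.06 and 1.32 ± 0.06, while Tsc1, an inhibitor of mTORC1, was lower by -1.05 ± 0.07 and -1.09 ± 0.07 and Pdcd4, an inhibitor of Eif4a, by -1.03 ± 0.07 and -0.999 ± 0.07. Of the 8 genes of the MYC network, 2 were higher and 4 lower in each comparison, with Myc, named outside the rule, at -0.74 ± 0.06 and -0.75 ± 0.06, Mxd3 at 3.84 ± 0.26 and 3.15 ± 0.27 and Mxd1 at -2.14 ± 0.10 and -2.18 ± 0.10. Of 5 tested genes of the p53 pathway that free ribosomal proteins act on, 4 were higher and 1 lower in PASCs and 3 and 1 in EASCs, with Cdkn1a at 0.66 ± 0.06 and 0.80 ± 0.06 and Mdm4 at -1.02 ± 0.07 and -1.33 ± 0.07.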

How the data were processed

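The deposited table holds raw read counts per gene for 9 libraries, made by the authors from paired 150 bp reads that were trimmed and aligned with TopHat 2. The study's methods name genome rn6 and the submitters' processing notes name rn5, while the contig names of the table are those of rn6, so its coordinates are given as rn6. The counting tool and its treatment of strand and shared reads are not given in the sources used here. The methods mention 6 replicates per group, and 3 samples per group were analysed here.

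Groups were taken from the sample titles. Members and gene lists were chosen with earlier results of these data known. Counts were fitted over all 9 samples in edgeR 4.0.16 (R 4.3.3; filterByExpr, TMM, quasi-likelihood test, Benjamini-Hochberg adjustment over 14770 genes), and a gene was called at an adjusted p under 0.05 and counted as a DEG above 2-fold. CPM were TMM-scaled, and FPKM divided them by the length in the table. Named members were the 10 with the largest called changes per comparison, Rplp0, Rplp1, Rplp2, Rpsa, Rpl5, Rpl11, the 5 highest and 5 lowest levels, members not tested and DEGs. Others were at most 3 per list with the largest called change against SASCs. Rps3a, the other uncertain entries, Rpl7a, Rpl29, the remaining genes given by role and Myc were added after their values were seen. Some single genes that these rules name are not reported here, and 2 of the firm members are not plotted by gene.

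Alternatives were DESeq2 1.42.0, no count filter, total counts with and without rRNA, cyclic loess with limma 3.58.1, a gene length offset, scaling to the ribosomal protein total, only the groups compared, a replicate block and leaving out each library. Adding copies to each member and leaving out the 10 uncertain members were chosen after seeing the data. Replicates of a group differed by more than counting noise, so each library was counted as 1 replicate. On counts simulated for EASCs against SASCs over 14436 genes, the fit recovered 100 of 100 large and 77 of 96 small changes and called 15 unchanged genes. The simulated counts held 196 changed genes and no trend over gene length, so this recovery says nothing about the choice of scaling. Promoter sequences came from RefSeq (GRCr8).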

Additional observations from a re-analysis of the deposited data

Results flagged for a closer look

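The change against SASCs differed between EASCs and PASCs in 13 members by the edgeR test of EASCs against PASCs (log2, EASCs minus PASCs). The differences were -0.85 for Rps4y2, -0.32 for Rpl27a, -0.27 for Rps2, -0.26 for Rpl22, -0.26 for Rps28, -0.23 for Rpl18, -0.20 for Rpl23, -0.19 for Rps26, -0.18 for Rpl36a, -0.18 for Rpl11, -0.17 for Rps18, -0.16 for Rpl10a and -0.15 for Rps10. Of these 13 calls, 12 were kept under DESeq2 (Rpl27a was lost), 13 under cyclic loess, 4 with the length offset (Rps4y2, Rps2, Rpl22 and Rpl18) and 1 by total counts. Rps4y2 alone was called when the libraries were scaled to the ribosomal protein total.

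Outside the comparisons, the entry Rpl37a-ps1, a pseudogene of a protein for which the naming rule found no member, held 47020 counts over the 9 libraries, far above the 3 counts that a level of 0 allows in a library. Groups of 3 samples are too small for a test of single outlying samples.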

How the results depend on the processing

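Medians are given here minus the median of all tested genes. In the fit reported above they were 0.26 in EASCs and 0.35 in PASCs against SASCs and -0.09 in EASCs against PASCs, with 49, 66 and 13 members called. DESeq2, the absence of a count filter, the fit of only the groups compared, copies added to each member and the removal of the 10 uncertain members left each count within 1.5 times of these and each median within the spread between replicates. Cyclic loess gave medians of -0.047 in EASCs and 0.055 in PASCs, with 35 members called in PASCs. The gene length offset gave -0.0022, 0.0026 and -0.00033, with 38 called in PASCs and 6 between EASCs and PASCs. Scaling to the ribosomal protein total gave 30, 25 and 1 calls, and total counts gave 10, 7 and 1. Of the 49, 66 and 13 calls, the first kept 12, 10 and 1 in their direction and the second 2, 4 and 1. Shares of all tested genes, where counted, are given above. Total counts without rRNA gave 24 calls between EASCs and PASCs. The causes of these shifts were not tested. The summed level of the members was 2.77, 3.58 and 3.35% of TMM-scaled counts in SASCs, PASCs and EASCs, 3.28, 3.38 and 3.02% of all counts and 3.79, 4.68 and 4.22% of counts without rRNA. In all counts, ribosomal RNA seems to be entered both under its precursor and under its parts. Leaving out 1 library gave 46 to 52, 58 to 66 and 3 to 24 calls and medians of 0.22 to 0.29, 0.33 to 0.41 and -0.14 to -0.04.

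Genes given with values of their own that changed direction against SASCs, and were called in at least 1 of the 2 fits, were, with the length offset in EASCs, -0.19 for Rpl22, -0.22 for Rps26, -0.24 for Rpl36a, -0.15 for Rpl7a, -0.16 for Rpl29, -0.070 for Rps7, -0.13 for Rps18, -0.056 for Rps24 and -0.055 for Fau, and in PASCs -0.036 for Rpl22, -0.19 for Rps28, -0.21 for Rpl23, -0.14 for Rps26, -0.15 for Rpl36a, -0.0082 for Rpl11, -0.25 for Rpl5, -0.12 for Rpl30, -0.19 for Rpl7a, -0.21 for Rpl29, -0.17 for Rps7, -0.12 for Rps24, -0.058 for Rps18, -0.043 for Rpl38 and -0.098 for Fau. With cyclic loess they were, in EASCs, -0.023 for Rpsa, -0.14 for Rps2, -0.33 for Rpl27a, -0.21 for Rps26, -0.14 for Rpl36a, -0.15 for Rpl11, -0.092 for Rplp0, -0.086 for Rpl41, -0.28 for Rpl7a, -0.27 for Rpl29, -0.15 for Rps7, -0.20 for Rps18, -0.081 for Rps24 and -0.039 for Fau, and in PASCs -0.097 for Rpl23, -0.012 for Rps26, -0.021 for Rplp0, -0.34 for Rpl5, -0.21 for Rpl7a, -0.19 for Rpl29, -0.13 for Rps7, -0.0070 for Rps18 and -0.025 for Rps24. By total counts, relative to all genes, Rpl27a stood at -0.038 in EASCs.

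Samples with the same replicate number did not deviate together (correlations of -0.04 to 0.03), so the numbers were not taken to pair samples. With a replicate block, 53, 67 and 16 members were called with medians of 0.26, 0.35 and -0.08. Rps9, Rps19 and Rplp2 had few counts in their own entries, and 3 samples a group limit small differences. How reads were assigned between copies was not tested.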
